A study of Mus musculus with 8 samples.

Results

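Here 10 secreted or surface proteins that meet the bacteria of the gut lumen were examined: the lectins Reg1, Reg3a, Reg3b, Reg3g and Reg4, the scavenger protein Dmbt1, the antibody transporter Pigr, and Saa1, Retnlb and Lypd8. They were chosen by name, and all 10 were found by symbol among the 37620 genes of each library. The libraries came from sorted epithelial cells of the mouse small intestine, from which leukocytes carrying CD45 and cells binding the fucose-specific Ulex europaeus lectin (a ligand of goblet and Paneth cell glycans) had been removed. There were 4 biological replicates of cells with intermediate CD24 (CD24Mid, also named CD24low by the submitters, replicates 1, 3, 5 and 7) and 4 of cells without CD24 (CD24Neg, replicates 2, 4, 6 and 8). CD24 is a surface glycoprotein that is strong at the crypt base and weak on the villus. The labels name no treatment, strain, age or genotype.

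Reg proteins are small C-type lectins released by enterocytes and secretory cells into the mucus. Reg3g binds the peptidoglycan of Gram-positive bacteria, Reg3b acts on Gram-negative bacteria, and both are induced in epithelium by interleukin-22 through Stat3 and by bacterial sensing through Myd88. Pigr carries polymeric IgA and IgM across the cell, Dmbt1 binds bacteria through its cysteine-rich scavenger domains, Lypd8 is a lipid-anchored protein known for binding flagella in the colon, Saa1 is an acute-phase protein of the gut and liver, and Retnlb is a goblet cell product.

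Of the 10 genes, 7 were higher in CD24Neg, by 1.47-fold for Pigr up to 26.7-fold for Reg3a and more for Saa1, in a comparison where 69.8% of all genes tested were called in either direction (34.3% higher in CD24Neg, 35.5% higher in CD24Mid). Dmbt1 and Reg4 went the other way, 3.50-fold and 3.03-fold higher in CD24Mid. Retnlb had 5 reads in all 8 libraries together. The Reg genes were thus split, with the 4 that lie together on chromosome 6 higher in CD24Neg and Reg4, which is encoded elsewhere, higher in CD24Mid.

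The Reg genes of the shared locus follow each other on chromosome 6 in the order Reg3b, Reg3d, Reg3a, Reg2, Reg1 and Reg3g, with a pseudogene, Gm52853, before Reg3g. The 150 bases before the start of 4 of them are shown, 5′ to 3′ on the strand of the gene, because Reg3b and Reg3g are the pair whose balance differed between the groups, and Reg1 and Reg2 are neighbours of which the former was abundant and the latter nearly unread. Sequences are those of RefSeq on GRCm38.p6, a later build than that of the counts, at chr6:78370735-78370884 (Reg3b, plus strand), chr6:78468875-78469024 (Reg3g, minus strand), chr6:78425833-78425982 (Reg1, plus strand) and chr6:78405005-78405154 (Reg2, plus strand). Capitals mark the letters TATAAA and TTCNNNGAA, the latter a pattern bound by STAT proteins.
Reg3b: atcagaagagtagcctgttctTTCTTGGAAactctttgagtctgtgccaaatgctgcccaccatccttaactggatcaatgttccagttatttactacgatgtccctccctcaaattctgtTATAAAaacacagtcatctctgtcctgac
Reg3g: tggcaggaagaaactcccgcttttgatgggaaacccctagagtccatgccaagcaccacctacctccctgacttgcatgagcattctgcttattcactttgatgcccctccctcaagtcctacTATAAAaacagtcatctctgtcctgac
Reg1: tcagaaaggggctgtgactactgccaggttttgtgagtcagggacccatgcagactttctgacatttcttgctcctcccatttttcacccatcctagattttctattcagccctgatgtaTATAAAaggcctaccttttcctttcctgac
Reg2: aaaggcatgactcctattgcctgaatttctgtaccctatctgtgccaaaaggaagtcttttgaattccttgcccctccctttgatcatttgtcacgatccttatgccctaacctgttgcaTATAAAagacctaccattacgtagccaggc

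TATAAA stood 29 to 24 bases before the start of Reg3b, 27 to 22 before Reg3g, and 30 to 25 before Reg1 and Reg2. These letters, searched on both strands, occur in 7.57% of the 32851 promoters of this length in the table. TTCNNNGAA, which reads the same on both strands, was found at 129 to 121 bases before Reg3b, as TTCTTGGAA, and is in 4.09% of all promoters. Of the 8 genes of the set that the table holds (Dmbt1 and Retnlb had no entry), 3 had TATAAA and 1 had TTCNNNGAA. Within the locus, Reg3a and Reg3d, whose windows are not shown, had neither pattern. Over an alignment of the whole window, Reg3b and Reg3g were identical at 68.4% of 152 columns and Reg1 and Reg2 at 58.0% of 157, while the other pairs of the 6 genes ran from 45.3% to 53.2%. A match of letters is a description of the sequence and does not show binding.

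Reads unique to a gene numbered 11340782 to 18928233 per library. Levels are unique reads as CPM, scaled between libraries by the trimmed mean of M-values (TMM), and tests are edgeR's quasi-likelihood F test with Benjamini-Hochberg adjustment over 12840 genes. The log2 fold change is CD24Neg over CD24Mid unless stated. All 10 enterocyte markers (such as Apoa1 and Lct) were higher in CD24Neg, with a summed level of 33803 to 55040 CPM against 1651 to 2740, and all 8 stem and division markers (such as Lgr5 and Olfm4) were higher in CD24Mid, with 3925 to 5402 against 219 to 561 CPM. Genes encoded by the mitochondrion took 27.7% to 37.0% of the unique reads in CD24Neg and 8.03% to 9.17% in CD24Mid. With those genes left out, 7 genes of the set were called higher in CD24Neg and 2 in CD24Mid, and values moved little (Reg3b to 4.03 and Pigr to 0.53 as log2 fold change). The part of the marker differences in the results was not tested.

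Of the 10 genes, 9 had enough reads to be tested, and all 9 were called, 7 higher in CD24Neg and 2 higher in CD24Mid. No library of either group overlapped the other group in any of the 9, which held for 64.4% of all genes tested. The median log2 fold change of the 9 was 2.69, against -0.015 over all genes tested. In bulk RNA, fewer cells of a type and less RNA per cell cannot be told apart.

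**Figure D1:**
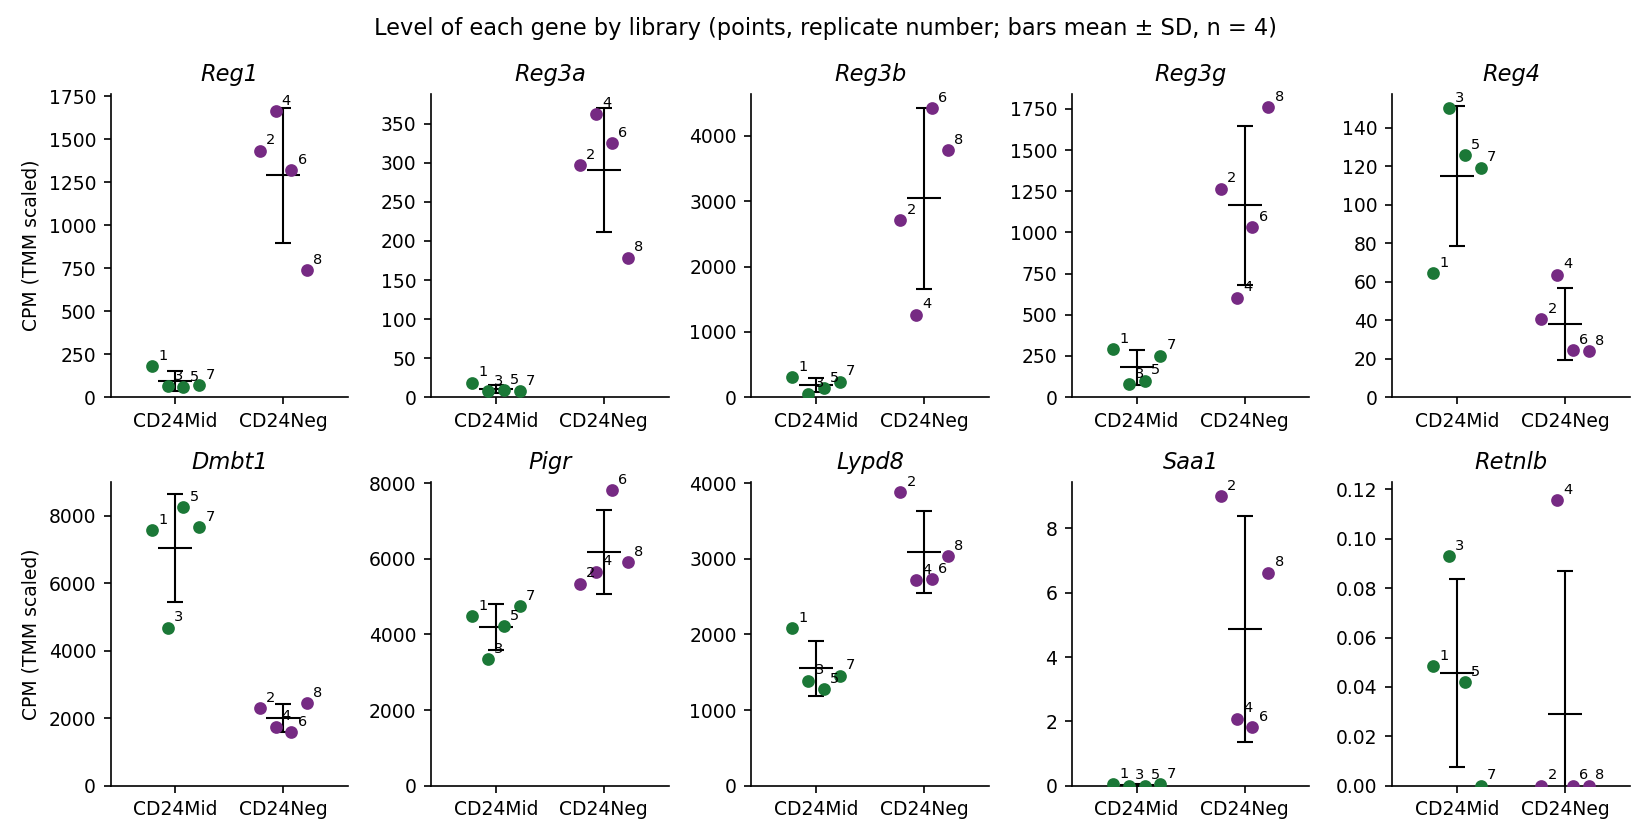
Level of each of the 10 genes in each library, on a linear axis of TMM-scaled CPM, with the replicate number at each point and bars for the mean ± SD of 4 libraries a group. The groups are separate for all but Retnlb, with CD24Neg above CD24Mid except for Reg4 and Dmbt1.

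Reg3b (ENSMUSG00000071356), the lectin acting on Gram-negative bacteria, had 306, 53.4, 135 and 236 CPM in CD24Mid replicates 1, 3, 5 and 7 and 2712, 1262, 4426 and 3788 CPM in CD24Neg replicates 2, 4, 6 and 8. The lowest CD24Neg library, replicate 4, was still far above the highest CD24Mid library. The difference was 16.7-fold (log2 fold change 4.06 ± 0.56 SE, edgeR adjusted p = 6.70e-05). Per kilobase of effective length, Reg3b held rank 177 of 23318 genes in CD24Mid and rank 21 in CD24Neg.

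Reg3g (ENSMUSG00000030017), the lectin of Gram-positive peptidoglycan, had 291, 80.4, 100.1 and 252 CPM in CD24Mid and 1266, 604, 1031 and 1759 CPM in CD24Neg, in the same order of replicates. Replicates 1 and 7 were high and 3 and 5 low among the CD24Mid libraries, for Reg3g as for Reg3b. Its difference was 6.44-fold (log2 fold change 2.69 ± 0.45 SE, edgeR adjusted p = 0.00032).

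Reg3a (ENSMUSG00000079516), a further Reg3 lectin of the locus, had 18.7, 8.18, 8.78 and 7.97 CPM in CD24Mid and 297, 363, 325 and 179 CPM in CD24Neg. It was the scarcest of the 4 in every library and had the largest fold difference of them, 26.7-fold (log2 fold change 4.74 ± 0.34 SE, edgeR adjusted p = 6.09e-07). Averaged over 4 libraries, it was at 10.9 ± 5.21 CPM (SD) in the former group and 291 ± 79.6 CPM in the latter.

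Reg1 (ENSMUSG00000059654), also called lithostathine and first known from the pancreas, had 181, 65.9, 57.9 and 70.7 CPM in CD24Mid and 1435, 1665, 1323 and 739 CPM in CD24Neg. CD24Mid replicate 1 stood well above the other CD24Mid libraries, as it did for Reg3a, and CD24Neg replicate 8 was the lowest CD24Neg library for both genes. The difference was 13.8-fold (log2 fold change 3.78 ± 0.41 SE, edgeR adjusted p = 1.13e-05). Of the 8 acinar markers that would accompany pancreatic tissue, Prss2, Cpa1, Pnlip and Amy2a5 had no read in any library, while Cela1 had 230 reads in CD24Mid and 135 in CD24Neg and was not called. The summed level of the list was 1.65 to 3.58 CPM in CD24Mid and 2.98 to 4.31 in CD24Neg, and its part in the level of Reg1 was not tested.

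Together these 4 genes took 0.0286% to 0.106% of unique reads in CD24Mid and 0.295% to 0.517% in CD24Neg. The libraries did not rank alike for all 4. Among the CD24Neg libraries, replicate 4 was the highest for Reg1 and Reg3a and the lowest for Reg3b and Reg3g, while replicate 8 was the lowest for Reg1 and Reg3a and the highest for Reg3g. The highest library exceeded the lowest 3.51-fold for Reg3b, 2.91-fold for Reg3g, 2.25-fold for Reg1 and 2.03-fold for Reg3a in CD24Neg. For other genes of the set this was 4.95-fold (Saa1), 2.64-fold (Reg4), 1.55-fold (Dmbt1), 1.46-fold (Pigr) and 1.43-fold (Lypd8).

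The other 2 genes of the locus were close to unread. Reg3d, a Reg3 paralog, had 7, 2, 6 and 7 reads in CD24Mid and 16, 14, 17 and 4 in CD24Neg, too few for the filter on low counts. Over the groups this is 22 against 51 reads, a ratio of 5.35 after scaling (95% exact interval 3.19 to 9.27, counting error only). With the filter left out, Reg3d was called higher in CD24Neg (log2 fold change 2.31, edgeR adjusted p = 0.0012). Reg2 had 3 reads in each group, all 3 of those in CD24Neg from replicate 4, and its per-kilobase level was below 1 CPM in every library, against at least 109 for the adjacent Reg1.

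**Figure D2:**
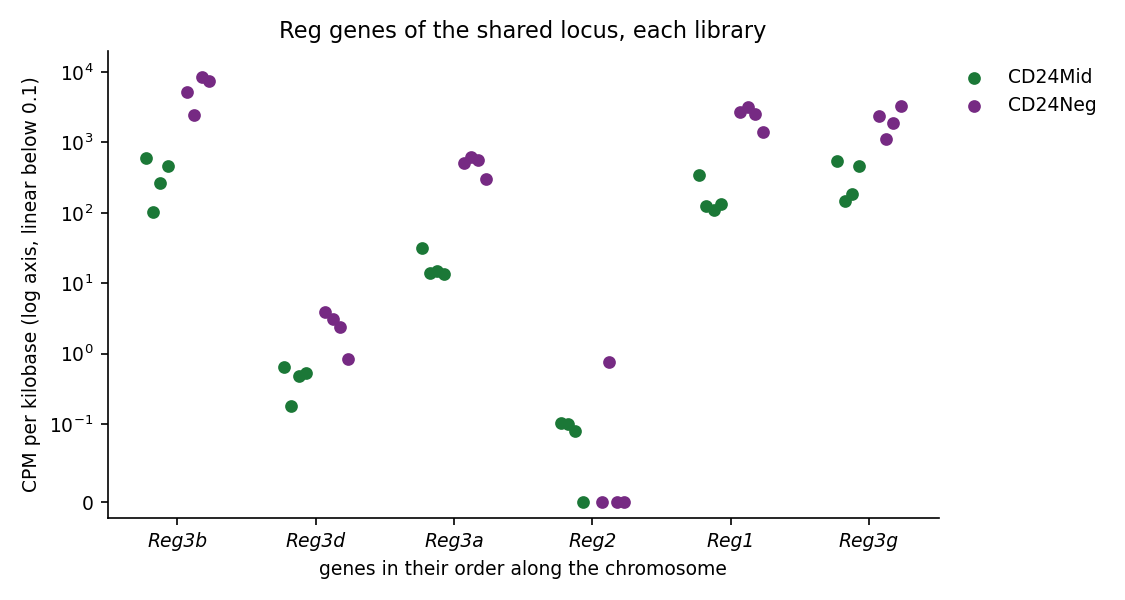
Level of the 6 Reg genes of chromosome 6 in each library, as TMM-scaled CPM per kilobase of effective length on an axis that is logarithmic above 0.1 and linear below, in the order of the genes along the chromosome. Reg3b, Reg3a, Reg1 and Reg3g are separated by group, with Reg3b in CD24Neg between 2442 and 8561, and the interleaved Reg3d and Reg2 stay below 4 in every library.

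Reg reads changed in composition as well as in amount. The ratio of Reg3g to Reg3b reads within a library does not depend on how libraries are scaled. It was 0.949, 1.505, 0.740 and 1.07 in CD24Mid and 0.467, 0.478, 0.233 and 0.464 in CD24Neg. All CD24Neg libraries lay below all CD24Mid libraries, and CD24Neg replicate 6 was lower than the rest. The mean ratio was 2.61-fold lower in CD24Neg (log2 difference -1.39, exact two-sided permutation p = 0.0286, 0.0429 after adjustment over 3 ratios, n = 4 each), and 0.0286 is the smallest p that 4 against 4 libraries allow. Reg3g thus made up 33.1% to 44.4% of the reads of the 4 lectins in CD24Mid and 14.5% to 27.2% in CD24Neg.

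For Reg1 against Reg3b the ratio was 0.590, 1.23, 0.428 and 0.299 in CD24Mid and 0.529, 1.32, 0.299 and 0.195 in CD24Neg. The groups overlapped over nearly their whole range, and no difference was detected (log2 difference -0.30, exact two-sided permutation p = 0.686, adjusted 0.686). Leaving out CD24Mid replicate 3 or CD24Neg replicate 8 turned its sign, to 0.087 and 0.10.

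The ratio of Pigr to Reg3b was 14.6, 62.6, 31.3 and 20.1 in CD24Mid and 1.97, 4.49, 1.76 and 1.56 in CD24Neg. Every CD24Mid library was above every CD24Neg library, by 12.4-fold in the mean (log2 difference -3.63, exact two-sided permutation p = 0.0286, adjusted 0.0429). Pigr reads outnumbered those of Reg3b in all 8 libraries, but Pigr is the longer gene, and per kilobase Reg3b was above Pigr in CD24Neg.

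**Figure D3:**
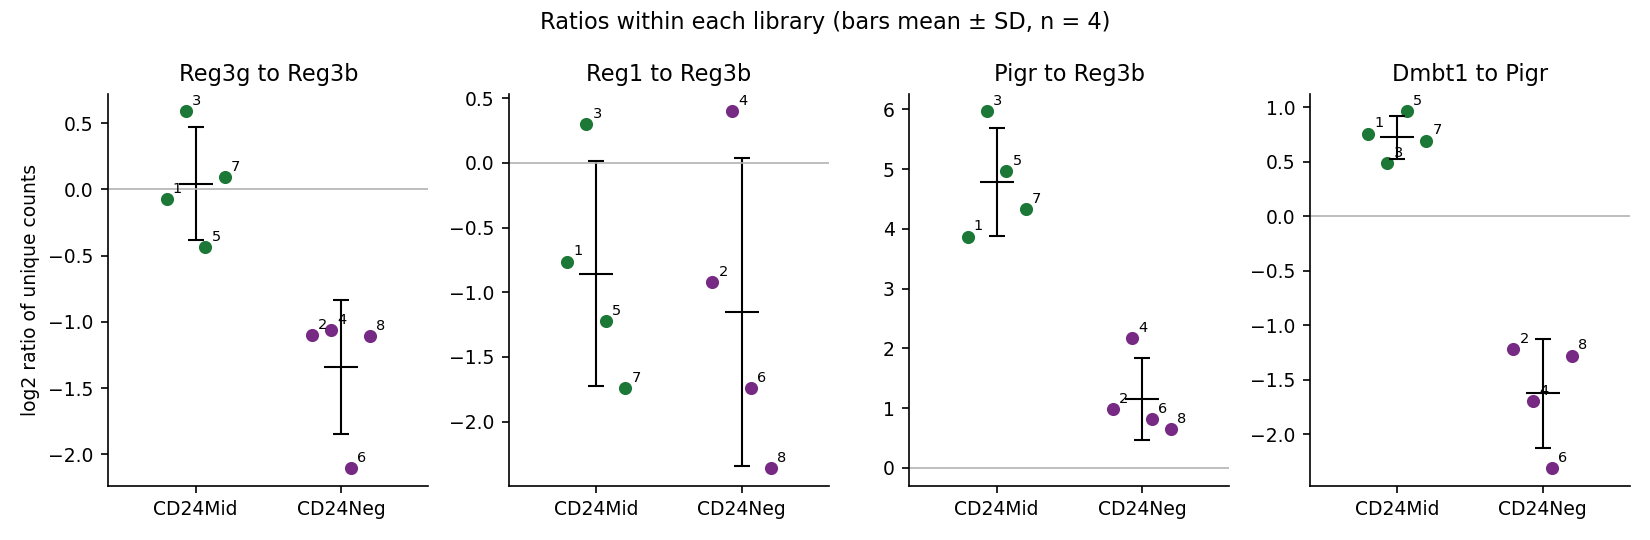
Log2 ratio of unique read counts of 2 genes within each library, with the replicate number at each point and bars for the mean ± SD of 4 libraries a group. The groups are apart for Reg3g to Reg3b, Pigr to Reg3b and Dmbt1 to Pigr (the latter chosen after the values were seen) and overlap for Reg1 to Reg3b.

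Reg4 (ENSMUSG00000027876), a Reg lectin known from enteroendocrine and other deep crypt secretory cells, had 64.4, 150.4, 126 and 119 CPM in CD24Mid and 40.4, 63.7, 24.4 and 24.1 CPM in CD24Neg. The groups nearly touched, since CD24Mid replicate 1 and CD24Neg replicate 4 differed by less than 1 CPM. The level of Reg4 in CD24Mid exceeded that in CD24Neg 3.03-fold (log2 fold change of -1.60 with an SE of 0.33, edgeR adjusted p = 0.0014). Of 8 enteroendocrine markers, 6 were higher in CD24Mid and 2 were not called, and their summed level was 288 to 820 CPM in CD24Mid and 78.9 to 128 in CD24Neg. CD24Mid replicate 1 was the lowest and replicate 3 the highest CD24Mid library for both that sum and Reg4. Their part in the difference in Reg4 was not tested.

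Dmbt1 (ENSMUSG00000047517), the scavenger receptor protein that binds bacteria, had 7579, 4684, 8243 and 7664 CPM in CD24Mid and 2292, 1747, 1576 and 2437 CPM in CD24Neg. CD24Mid replicate 3 was the lowest of its group and still above every CD24Neg library. The difference was 3.50-fold in favour of CD24Mid (a log2 fold change of -1.81 with an SE of 0.23, edgeR adjusted p = 3.42e-05). By mean CPM, Dmbt1 was gene 5 of 37620 in CD24Mid and gene 53 in CD24Neg. It took 0.644% to 1.17% of all unique reads in CD24Mid against 0.115% to 0.172% in CD24Neg. These shares are of unscaled totals, on which the fitted difference was larger, 6.76-fold in favour of CD24Mid.

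Pigr (ENSMUSG00000026417), the transporter of polymeric antibodies, had 4479, 3343, 4230 and 4741 CPM in CD24Mid and 5345, 5664, 7810 and 5915 CPM in CD24Neg. The CD24Neg libraries were all higher, by a small margin over CD24Mid replicate 7. The difference of 1.47-fold (log2 fold change 0.56 ± 0.18 SE, edgeR adjusted p = 0.018) rested on the scaling. On unscaled totals Pigr had 4594 to 6719 CPM in CD24Mid and 3721 to 5682 in CD24Neg, and the log2 fold change turned to -0.38 (edgeR adjusted p = 0.063). Without CD24Mid replicate 3 the value was 0.46 (edgeR adjusted p = 0.057), and without CD24Neg replicate 6 it was 0.37 (edgeR adjusted p = 0.080).

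Dmbt1 and Pigr changed places in read number. The ratio of Dmbt1 to Pigr, looked at after the values were seen and therefore not tested, was 1.69, 1.40, 1.95 and 1.62 in CD24Mid and 0.429, 0.308, 0.202 and 0.412 in CD24Neg. Dmbt1 reads were the more numerous in all 4 CD24Mid libraries and Pigr reads in all 4 CD24Neg libraries.

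Plasma cells make the antibodies that Pigr carries. The IgA heavy chain gene Igha was on the list of their markers but matched no gene, so it has no value here. Of 6 tested plasma cell markers, 5 were higher in CD24Mid, and the summed level of the list was 645 to 1267 CPM there against 309 to 395 in CD24Neg. Most of the CD24Neg sum came from Xbp1 (mean 213 CPM) and Sdc1 (92.1 CPM), against 20.0 CPM for Igkc and 19.3 CPM for Jchain. The J chain gene Jchain, whose product joins the antibody units that Pigr binds, exceeded its CD24Neg level 19.7-fold in CD24Mid (edgeR adjusted p = 1.36e-06), and the kappa light chain gene Igkc did so 20.2-fold (edgeR adjusted p = 1.72e-06). Xbp1 was the exception, 1.46-fold higher in CD24Neg, and it had the opposite sign on unscaled totals (log2 fold change -0.40). Of the antibody receptors related to Pigr, Fcamr favoured CD24Mid 2.64-fold (196 against 31 reads, edgeR adjusted p = 0.0021), and Fcmr had 46 reads in CD24Mid and none in CD24Neg, at least 6.64-fold lower with the 4 CD24Neg libraries together allowed 3 counts.

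Lypd8 (ENSMUSG00000013643), the anchored flagellum-binding protein, had 2087, 1391, 1282 and 1454 CPM in CD24Mid and 3883, 2722, 2729 and 3033 CPM in CD24Neg. Replicate 1 of CD24Mid and replicate 2 of CD24Neg were the high libraries of their groups. The difference was 1.99-fold (log2 fold change 0.99 ± 0.20 SE, edgeR adjusted p = 0.00095), but on unscaled totals the groups covered nearly the same range, 1813 to 2782 CPM in CD24Mid and 1985 to 2703 in CD24Neg, with a log2 fold change of 0.051 (edgeR adjusted p = 0.79). That scaling moves the median of all genes from -0.015 to -0.96, so Pigr and Lypd8 lie above the median gene in both.

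Saa1 (ENSMUSG00000074115), the serum amyloid protein, had 1, 0, 0 and 1 reads in CD24Mid and 71, 18, 25 and 60 reads in CD24Neg. Replicates 2 and 8 were the high CD24Neg libraries, at 8.99 and 6.62 CPM against 2.08 and 1.82 in replicates 4 and 6. The fitted log2 fold change was 7.34 ± 0.83 SE (edgeR adjusted p = 1.61e-05), and the 95% exact interval of the scaled count ratio ran from 54.8 to 1672, counting error only. Other genes of its family were scarcer, with 0 against 4 reads for Saa2, 5 against 3 for Saa3 and 1 against 0 for Saa4 (CD24Mid against CD24Neg).

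Replicates 2 and 8 were also the CD24Neg libraries with the most reads of T cells, natural killer cells and innate lymphoid cells. The summed level of those 10 markers was 563 and 447 CPM in replicates 2 and 8, 97.3 and 181 in replicates 4 and 6, and 28.6 to 42.4 in CD24Mid. Of the 7 markers tested, 6 were higher in CD24Neg and 1 was not called, and Il22, which encodes the inducer of Reg3 genes, had no read in any library. Without both replicates, a choice made after the data were seen, the log2 fold change of Saa1 was 6.07 (edgeR adjusted p = 5.1e-05) and that of Reg3g 2.16 (edgeR adjusted p = 0.0063). Reg1 and Reg3a then had 3.99 and 4.97, above their values with all libraries, and Reg3b had 3.94. Replicates 2 and 8 also had the largest mitochondrial shares, 35.1% and 37.0%, against 27.7% and 28.3% in replicates 4 and 6. The enterocyte marker sums of replicates 2 and 8 were the lowest of CD24Neg, 33803 and 33864 CPM against 46441 and 55040. The part of these differences and of the lymphoid markers in the level of Saa1 was not tested.

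Retnlb (ENSMUSG00000022650), the resistin-like protein of goblet cells, had 1, 2, 1 and 0 reads in CD24Mid and 0, 1, 0 and 0 reads in CD24Neg, too few to test. The scaled ratio of CD24Neg to CD24Mid was 0.577 with a 95% exact interval of 0.0117 to 5.83, so no difference was detectable at this depth. Retn, Retnla and Retnlg, the other resistin family genes, had no read. Goblet markers were present all the same, at 3425 to 5314 CPM summed in CD24Mid and 12235 to 34501 in CD24Neg. Of the 8, 5 were higher in CD24Neg, namely Zg16, Muc2, Clca1, Fcgbp and Tff3. The other 3, Agr2, Spdef and Atoh1, were not called, with log2 fold changes of -0.37, 0.23 and 0.026.

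Per kilobase of effective length, the order of mean levels in CD24Mid was Lypd8 (1914 CPM per kilobase), Dmbt1 (1344), Pigr (1324), Reg3b (354), Reg3g (334), Reg1 (177), Reg4 (154) and Reg3a (18.6), then Retnlb and Saa1 near 0. Library ranges of neighbours in this order overlapped except between Lypd8 and Dmbt1, Pigr and Reg3b, Reg4 and Reg3a, and Reg3a and Retnlb. In CD24Neg the order was Reg3b (5894), Lypd8 (3808), Reg1 (2429), Reg3g (2152), Pigr (1951), Reg3a (496), Dmbt1 (384), Reg4 (51.2), Saa1 (12.6) and Retnlb. There the overlapping neighbours were Reg3b with Lypd8, Reg1 with Reg3g, Reg3g with Pigr, and Reg3a with Dmbt1. Reg3b thus stood at place 4 in CD24Mid and place 1 in CD24Neg, and Dmbt1 at places 2 and 7.

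**Figure D4:**
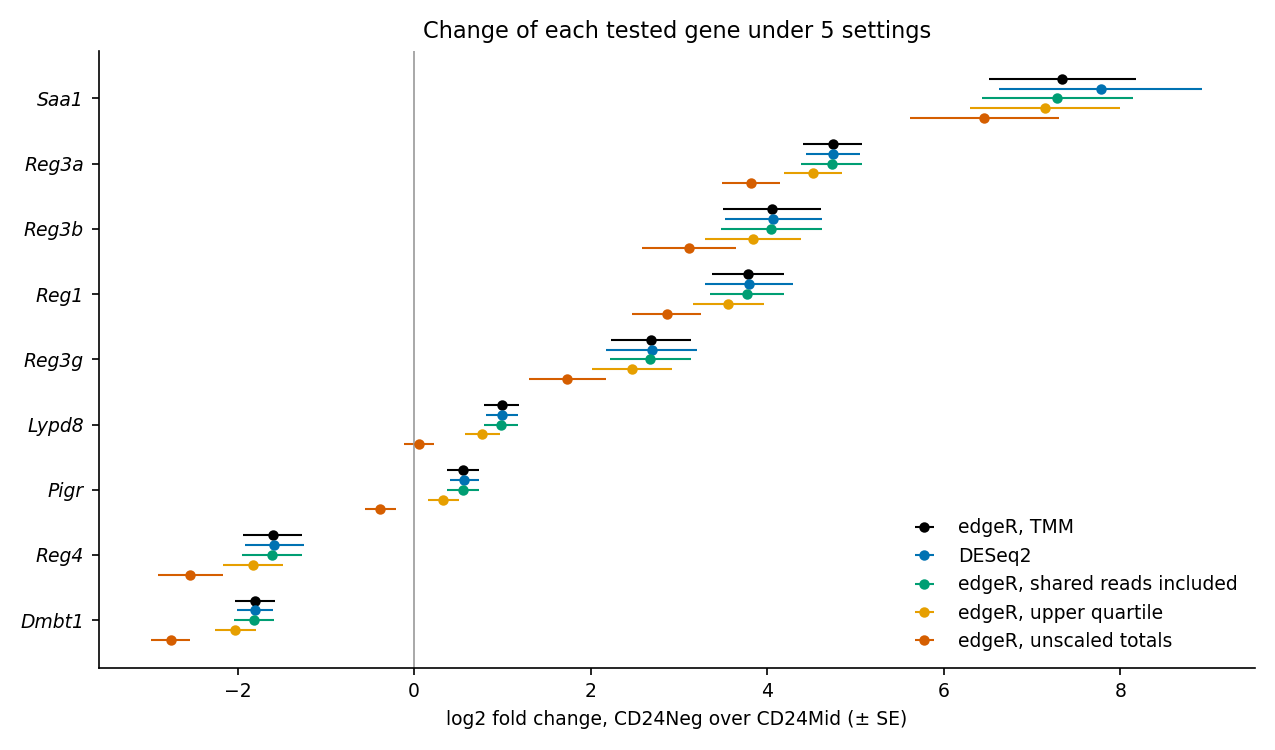
Log2 fold change (CD24Neg over CD24Mid) ± SE of the 9 tested genes under 5 settings of scaling, counting or tool. Unscaled totals shift all 9 to lower values, and the sign differs between settings for Pigr alone, at 0.56 with TMM scaling and -0.38 on unscaled totals.

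Genes with the most similar profile over the 8 libraries were sought for the 8 genes of at least 10 CPM in either group, among 8909 genes, by the root mean square difference of centred log2 CPM. This is a description of 8 libraries that share a group difference. Reg1 was closest to the alkaline phosphatase Alpi (0.22), the fructose transporter Slc2a5 (0.23) and the amino acid transporter Slc6a20a (0.31). Reg3a was closest to Gsta1 (0.25), the folate transporter Slc46a1 (0.26) and Cyp2d26 (0.28).

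The nearest profiles to Reg3b were at larger distances, the sodium-proton exchanger Slc9a3 (0.45), the kinase Ptk6 (0.48) and the nucleic acid sensor Zbp1 (0.48), and those to Reg3g were Mgat4c, Apol10a and again Ptk6 (each 0.39). Among the neighbours of Reg3b, Reg3g came at place 63, and Reg3b came at place 409 among those of Reg3g. Reg3a was at place 50 for Reg1, and Reg1 at place 46 for Reg3a. Reg4 was nearest to Rab15 (0.28), Pcdhgc4 (0.30) and Afap1l1 (0.32), and Dmbt1 to Celsr1 (0.18), the cyclin gene Ccnd1 (0.22) and the unnamed ENSMUSG00000090867 (0.23). Pigr and Lypd8, with smaller differences between groups, had close neighbours: Nsun3 (0.089), Sel1l (0.11) and Tom1l1 (0.11) for Pigr, and Prpsap1 (0.060), Psmb10 (0.088) and Scand1 (0.10) for Lypd8.

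Receptors, signal carriers and inhibitors of cytokine, STAT and microbial sensing pathways were counted from lists. Of 18 tested genes of 20 for cytokine receptors and STAT signalling, 14 were higher in CD24Neg, 3 were higher in CD24Mid and 1 (Il6st) was not called, with a median log2 fold change of 0.86, against shares of 34.3% and 35.5% called in the same directions over all genes tested. Socs3, a feedback inhibitor induced by Stat3, had 14.4 ± 5.03 CPM in CD24Mid and 49.8 ± 8.29 in CD24Neg (SD, n = 4 each), a 3.44-fold difference (edgeR adjusted p = 5.00e-05). The receptor subunit Il22ra1 had 17.7 ± 3.06 and 58.6 ± 9.78 CPM, 3.32-fold apart (edgeR adjusted p = 2.99e-06), and the kinase Jak2 differed 3.14-fold in the same direction (edgeR adjusted p = 3.93e-06). The 3 genes higher in CD24Mid were the receptor subunits Il1rap and Il17re and Extl3, a proposed receptor of Reg3 proteins, with log2 fold changes of -1.30, -0.80 and -0.71, named after their values were seen. On unscaled totals the counts were 7 and 7, where those over all genes were 1659 and 8959.

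For microbial sensing and NF-kB, 20 of 22 genes were tested, of which 8 were higher in CD24Neg, 6 were higher in CD24Mid and 6 were not called (median log2 fold change 0.19). These shares are close to those over all genes tested, 34.3% and 35.5%. The adaptor Ticam1 was 3.27-fold, the NF-kB subunit Relb 2.43-fold and the inhibitor Tnfaip3 2.11-fold higher in CD24Neg, with edgeR adjusted p-values of 9.20e-07, 2.24e-06 and 0.00063. Higher in CD24Mid were Tlr2, Cd14, Tlr1, Irak1, Nod1 and Traf6, and the adaptor Myd88 was not called (log2 fold change 0.35, edgeR adjusted p = 0.079). On unscaled totals 2 were higher in CD24Neg and 12 in CD24Mid, and Tnfaip3 was no longer called (log2 fold change 0.13, edgeR adjusted p = 0.56).

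Among 24 other luminal defence proteins, 16 were tested, with a median log2 fold change of 0.28. Of these, 5 were higher in CD24Neg, 1 (Lyz2) was higher in CD24Mid and 10 were not called. The share higher in CD24Neg is close to the 34.3% over all genes tested, and that higher in CD24Mid is below the 35.5%. The lectin-like Zg16, which binds Gram-positive bacteria in mucus and is also on the goblet list, had 619 ± 264 CPM in CD24Mid and 5084 ± 2392 in CD24Neg, an 8.22-fold difference (edgeR adjusted p = 6.49e-05). Nos2 was 2.94-fold and the ribonuclease Ang 1.58-fold higher (edgeR adjusted p = 0.0027 and 0.0043), the latter with the opposite sign on unscaled totals (log2 fold change -0.27), where the counts for the list were 2 and 5. Nos2 was not called there either (log2 fold change 0.60, edgeR adjusted p = 0.15). Lyz1 and Ang4, granule products of Paneth cells, were not called, with log2 fold changes of 0.25 and -0.38.

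**Figure D5:**
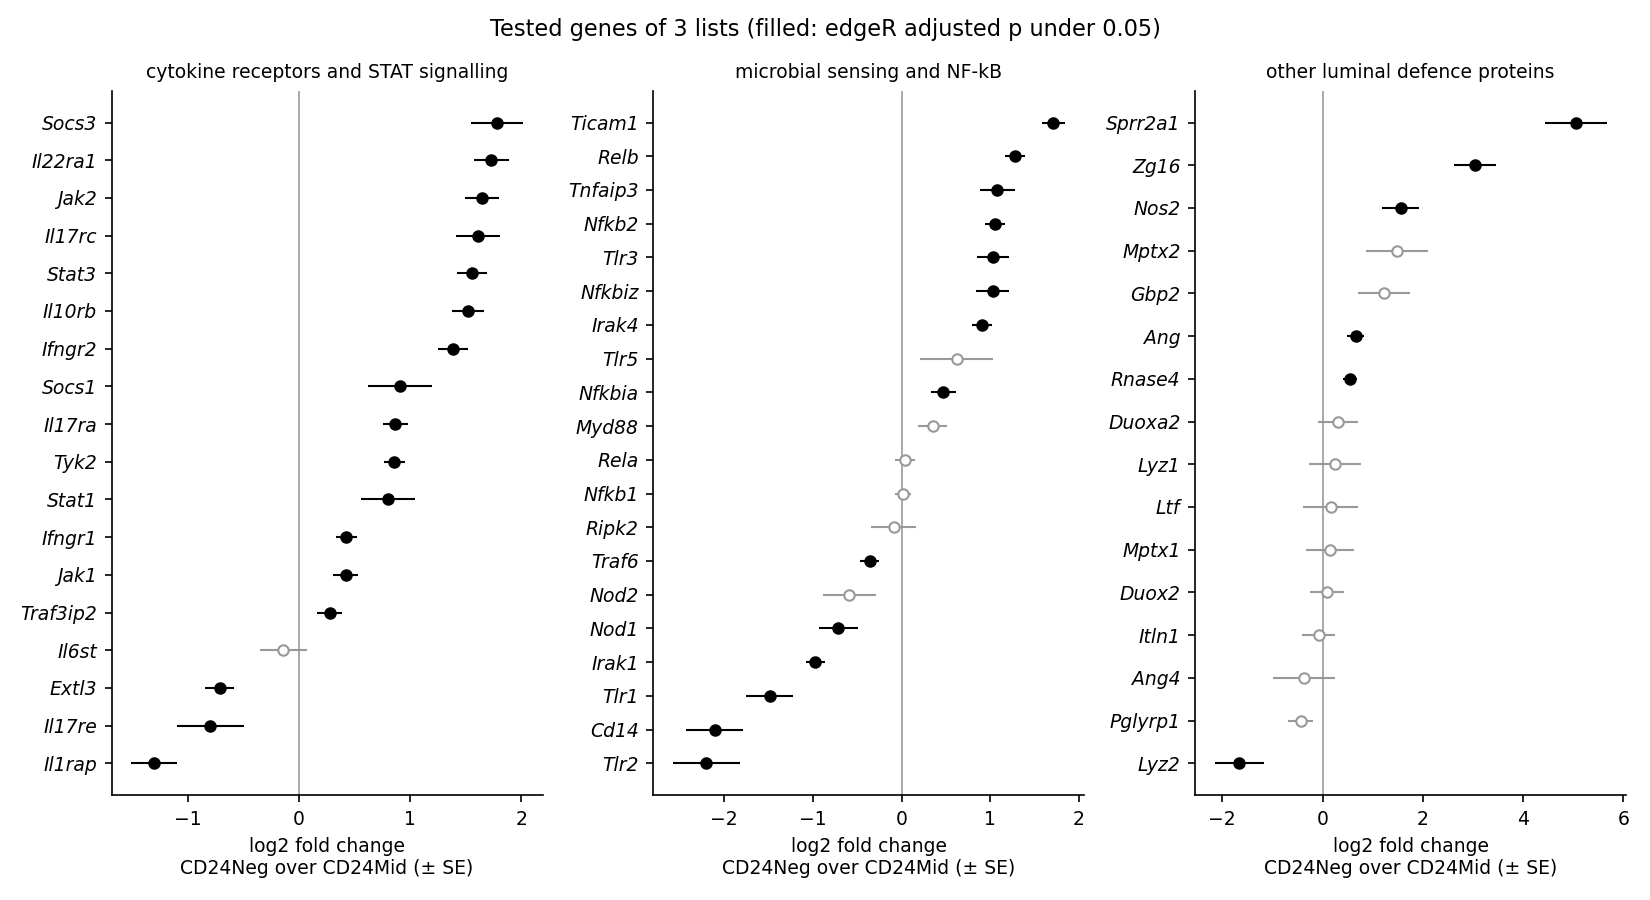
Log2 fold change (CD24Neg over CD24Mid) ± SE of each tested gene of 3 lists, filled where the edgeR adjusted p was under 0.05. Genes of cytokine receptors and STAT signalling lie mostly to the right (14 of 18 called higher in CD24Neg), while those of microbial sensing and NF-kB lie on both sides (8 and 6).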

How the data were processed

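RNA sequencing measured gene expression in 8 libraries of flow-sorted mouse small intestinal epithelium. Per the labels' protocols, total RNA came from a miRNeasy kit and TruSeq RNA libraries were prepared from it. Reads were aligned with Bowtie 0.12.8 to NCBIM37, per the submitters' processing notes. For the annotation release, strand setting and filters, nothing is given in the sources used here. Reads of overlapping genes on opposite strands may therefore be mixed.

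The authors deposited, for each of 37620 genes, a whole-number count of fragments unique to that gene, not normalised. They also deposited a natural log expression estimate that shares out multi-gene reads, and an effective length in bases. The scale of the deposited natural log estimate (fragments per kilobase, normalised to mapped fragments) was read from the values. Counts including shared reads were 0.966 to 1.00 times the unique counts for the 10 genes. Values under 1 show an offset in this derived count, so it does not settle whether close paralogs such as the Reg genes share reads, and their levels are uncertain to that extent. Names were found for 32897 genes (87.4%).

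Mapped fragments numbered 12401668 to 20445879 per library. A gene without a read was limited (3 counts) to 0.121 to 0.145 CPM in CD24Mid and 0.218 to 0.380 in CD24Neg. Intervals and limits cover counting error only, since no molecular identifiers are described. Groups came from the sample labels, which call the replicates biological. No library repeated another: the lowest chi-square per degree of freedom between 2 libraries of a group was 10.8.

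The main test, on unique counts, was the quasi-likelihood F test of edgeR 4.0.16 (robust, filterByExpr, TMM factors, group as the only term), run in R 4.3.3. P-values were adjusted by the Benjamini-Hochberg method over all 12840 genes that passed the filter, and calls were made at 0.05. TMM factors were 1.34 to 1.42 in CD24Mid and 0.697 to 0.757 in CD24Neg. The standard error is the log2 fold change divided by the root of F. Ratios within a library, with 0.5 added to each count, were compared by exact permutation in SciPy 1.17.1. The 16 alternatives used DESeq2 1.42.0, limma 3.58.1 on the deposited log estimates, other scalings and filters, and libraries left out. The test was checked on simulated counts with 50 genes changed at each size. It called 14% at 1.5-fold, 68% at 2-fold, 96% at 4-fold and 92% at 8-fold. The other 12381 genes were unchanged, so the check does not cover the scaling between groups.

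The genes, lists and pathway markers were chosen with earlier results of these data known, and 166 of 167 places in the lists matched a gene. The place without a match was that of Igha. Named genes are the 10 examined, their relatives, up to 3 called genes per list with the largest change (mean log2 CPM from 3 upward), and the 3 nearest profiles of each gene of at least 10 CPM. Other genes are named as examples or, where stated, after their values were seen.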

Additional observations from a re-analysis of the deposited data

Results flagged for a closer look

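In 4 of 26 sets of 4 libraries checked, the highest or lowest library lay farther from the rest than Dixon's 95% limit on the gap relative to the group's range, and chance gives about 1 such set in 20. CD24Mid replicate 1 was high for Reg1, at 181 CPM against 57.9 to 70.7 in the other CD24Mid libraries. The same library was high for Reg3a, at 18.7 CPM against 7.97 to 8.78. CD24Mid replicate 1 also had the highest enterocyte marker sum of its group, 2740 CPM against 1651 to 2016, and its part in these values was not tested. CD24Neg replicate 6 had the lowest log2 ratio of Reg3g to Reg3b, -2.10, against -1.11 to -1.06 in the other CD24Neg libraries. The set for Retnlb was marked for CD24Neg replicate 4, where 1 read gave 0.116 CPM and the other 3 libraries had none.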

How the results depend on the processing

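Reg1, Reg3a, Reg3b, Reg3g, Reg4, Dmbt1 and Saa1 kept their direction and their call in every setting run, except that Saa1 had no finite value in limma. The sizes of their differences did depend on the scaling. On unscaled totals the log2 fold change was 2.86 for Reg1, 3.82 for Reg3a, 3.11 for Reg3b and 1.74 for Reg3g. There it was -2.54 for Reg4, -2.76 for Dmbt1 and 6.46 for Saa1. Pigr had a log2 fold change of -0.38 on unscaled totals, 0.33 with upper-quartile scaling, -0.37 in limma on the deposited estimates (which are not rescaled between libraries) and 0.37 to 0.62 with 1 library left out. Pigr was not called on unscaled totals, with upper-quartile scaling (edgeR adjusted p = 0.11) or in limma. Lypd8 had 0.051 on unscaled totals and 0.083 in limma, neither called. limma called 4 of the genes higher in CD24Neg. Over all genes, 1659 were higher in CD24Neg and 8959 in CD24Mid on unscaled totals, and 1634 and 8545 in limma. Of all called genes, 49.2% were higher in CD24Neg with TMM factors, 38.6% with upper-quartile factors and 15.6% on unscaled totals.

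In the same order of groups, unscaled totals gave 7 and 7 for cytokine and STAT genes, 2 and 12 for sensing and NF-kB, and 2 and 5 for other luminal proteins, and limma gave 6 and 7, 2 and 12, and 1 and 5. Other luminal proteins higher in CD24Mid numbered 2 with upper-quartile scaling, without the count filter and without CD24Neg replicates 2 and 8 together, and 1 to 2 with 1 library left out (2 without CD24Neg replicate 2). Relatives of the 10 genes had 2 and 2 calls without the filter, 1 and 2 without CD24Neg replicates 2 and 8 together, and 0 to 1 higher in CD24Neg with 1 library left out. Ang turned to -0.27 and -0.35, and Xbp1 to -0.40 in both, on unscaled totals and in limma.

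With 1 library left out, the log2 difference of Reg3g to Reg3b ran from -1.55 to -1.13, that of Pigr to Reg3b from -3.97 to -3.24 and that of Reg1 to Reg3b from -0.82 to 0.10. Without CD24Neg replicates 2 and 8 together they were -1.63, -3.29 and 0.18. With 3 against 4 libraries the exact test cannot pass the threshold after adjustment. No paired analysis was run, because the labels number the libraries 1 to 8 and the groups share no number. The numbers alternate between the groups, but no label ties a CD24Mid library to a CD24Neg library. A pairing that the labels do not state would be ignored by these tests. Depth limits Retnlb, Saa1 in CD24Mid and the relatives, which have few reads.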

Other observations

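Levels of the lectins of chromosome 6 spread widely between libraries of a group, which is a description without a test. In CD24Mid the coefficient of variation of CPM over 4 libraries was 62.0% for Reg1, 60.8% for Reg3b, 58.7% for Reg3g and 47.8% for Reg3a, against 14.5% for Pigr, 22.7% for Dmbt1 and 23.3% for Lypd8. In CD24Neg it was 27.4% to 45.4% for the 4 lectins of chromosome 6 and 17.7% to 20.7% for Lypd8, Pigr and Dmbt1. Reg4 had 48.9% and Saa1, with few reads, 72.1% there. Among the 10 enterocyte markers, the CD24Mid values lay between 16.7% (Fabp2) and 55.7% (Fabp1), with Alpi at 52.6%. Their lowest CD24Neg value was 15.1% (Vil1) and their highest was 41.1% (Apoa4). A wide spread was therefore not confined to the lectins.

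Outside the naming rule, and singled out after its values were seen, the bacterial siderophore binder Lcn2 had 42 reads in CD24Mid and 1 in CD24Neg, a scaled ratio of 18.2 with a 95% exact interval of 3.09 to 735. Sprr2a1 had 7 reads in CD24Mid and 108 in CD24Neg, and its log2 fold change was 5.05 (edgeR adjusted p = 2.8e-05).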
